A study of Mus musculus with 3 samples.

Results

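Type A intercalated cells are the acid-secreting cells of the renal collecting duct. A barcode was taken as type A when it held at least 1 unique molecular identifier (UMI, the count of a captured transcript) of Atp6v1g3 or Atp6v0d2, at least 1 of Slc4a1, Aqp6 or Kit, and none of Slc26a4. It also needed at least 200 detected genes and at most 50% mitochondrial UMIs. In all, 609 of the 51795 kept barcodes met the rule, with 215 in the db/db fructose library, 281 in the db/db control library and 113 in the db/m library. These counts chose the members, so the levels of the 6 genes of the rule are a description and support nothing on their own.

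Each group gave 1 droplet library made from whole kidneys of male mice that were 28 weeks old. The db/db fructose library came from db/db mice that ate a 60% fructose diet for 20 weeks, starting at 8 weeks of age. The db/db control library came from db/db mice kept on a diet without fructose over the same weeks, and the db/m library from db/m mice on that control diet. The db/db genotype removes the long form of the leptin receptor in every tissue and leads to obesity and diabetes, while db/m mice carry a working copy and stay lean. How many mice stand behind a library is not given in the sources used here, and group and library cannot be told apart. No difference between libraries was therefore tested, and no p-value is given for one. Intervals on levels and ratios cover counting error only. Lepr, the mutated gene, had 0 counts in type A barcodes of all 3 libraries, and a tag from the 3′ end would not check the genotype in any case.

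In type A cells a proton pump of the V-ATPase family in the apical membrane moves acid into the urine, and Slc4a1 (anion exchanger AE1) in the basolateral membrane returns bicarbonate to the blood. Cytosolic carbonic anhydrase, encoded by Car2, supplies both, and the forkhead factor Foxi1 is needed for the intercalated fate in mice. Type B and non-A non-B cells, which carry the apical exchanger pendrin (Slc26a4), secrete bicarbonate or take up chloride. Both kinds share most subunits of the pump and differ in the membrane that carries it.

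The type A barcodes summed to 624870 UMIs in the db/db fructose library, 984873 in the db/db control library and 556838 in the db/m library. Their median depth was 1785, 2424 and 4594 UMIs in that order of libraries, whereas the median over all kept barcodes was 1565, 1641 and 1674 UMIs. Mitochondrial UMIs made up a median of 10.5%, 23.7% and 16.4% of a type A barcode, close to the medians of 10.9%, 25.8% and 15.5% over all kept barcodes. A total of 780 barcode sequences occurred in both db/db libraries, 379 in the db/db fructose and db/m libraries and 509 in the db/db control and db/m libraries, and 0 were type A in both. Of these shared sequences only 13 and 7, 4 and 4, and 4 and 2 were type A in the first and second library of each pair. With so few, the value of 0 carries little information. Doublets were left in place, and among the barcodes with the highest Scrublet doublet scores were 40, 46 and 10 of the type A barcodes. These were 18.6%, 16.4% and 8.85% of type A barcodes, against 16.3%, 21.2% and 10.8% of all deposited barcodes, a share set by the expected rate.

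The label was checked with genes that the rule did not use. Foxi1 was detected in 36.3% of type A barcodes in the db/db fructose library, 35.2% in the db/db control library and 49.6% in the db/m library, against 0.522%, 0.886% and 0.321% of proximal tubule barcodes of the same libraries, which should lack it. The proximal tubule barcodes, taken as those with at least 10 UMIs over 7 proximal genes, had median depths of 1644, 1755 and 1780 UMIs. Adgrf5, an adhesion receptor of type A cells in mice, was detected in 67.9%, 60.1% and 80.5% of type A barcodes, against 3.98%, 4.03% and 1.73% of proximal tubule barcodes. Dmrt2, a transcription factor that marks type A cells, was found in 40.5%, 34.2% and 59.3% of type A barcodes, against 0.468%, 0.501% and 0.338%. All 3 stood far above the share in proximal tubule barcodes in every library. Against pendrin-positive cells, the Slc26a4-positive barcodes described further on, Adgrf5 was in 14.2%, 15.9% and 7.02% and Dmrt2 in 5.97%, 4.55% and 1.75% of barcodes, while Foxi1, shared by intercalated cells, was in 27.6%, 25% and 26.3%. The type B gene Slc4a9 was not absent from members: it was detected in 61.9%, 51.6% and 67.3% of type A barcodes, against 94.8%, 85% and 93.0% of Slc26a4-positive and 1.38%, 2.22% and 0.677% of proximal tubule barcodes. Tmem213 was detected in 39.5%, 53.0% and 70.8% of type A barcodes, against 37.3%, 45% and 50.9% of Slc26a4-positive barcodes. For Avpr1a the shares were 11.6%, 20.3% and 39.8%, against 11.9%, 18.2% and 22.8%. Neither gene separated the classes clearly in the db/db libraries. The name type A is kept for barcodes chosen by this rule, with those exceptions among the markers. Of the rule's own genes, Slc4a1 was detected in 46.0%, 61.6% and 67.3% of members, against 0.909%, 1.27% and 0.778% of proximal tubule barcodes. Slc4a1, Aqp6 and Kit were seen together in 57, 84 and 57 members.

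Members differed in how strongly they carried the type. Over 10 intercalated genes outside the rule (Atp6v1b1, Atp6v0a4, Atp6v1c2, Foxi1, Rhcg, Car2, Adgrf5, Tmem213, Dmrt2 and Avpr1a), members with at least 2 UMIs in both sums of the rule had a median of 70.1 UMIs per 10000 in the db/db fructose library, 70.3 in the db/db control library and 88.5 in the db/m library. Members just inside the rule, with 1 UMI in each sum, had medians of 30.6, 11.8 and 19.9 UMIs per 10000 and numbered 37, 85 and 11. Barcodes just outside it, with 1 V-ATPase UMI and no UMI of Slc4a1, Aqp6 or Kit, had medians of 8.12, 7.17 and 6.56, and the proximal tubule barcodes had 7.02, 6.49 and 4.49. The db/db control library thus held the most members near the edge, and 19 of its 85 had none of the 10 genes. In that library none of them was found in 371 of 1404 barcodes just outside with 1 V-ATPase UMI. The same was true of 153 of 663 with 1 marker UMI and no V-ATPase UMI, and of 2592 of 9372 proximal tubule barcodes. Members with Slc4a1 as their only marker among Slc4a1, Aqp6 and Kit numbered 18, 44 and 1. In the db/db control library 10 of those 44 had none of the 10 genes. The same held for 9 of 40 members with only Aqp6 and 3 of 50 with only Kit. At least 3 of the 10 genes were detected in 88.4%, 71.2% and 91.2% of all members, and in 95.7%, 97.7% and 100% of those with at least 2 UMIs in both sums, which are called strict members from here on.

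**Figure D1:**
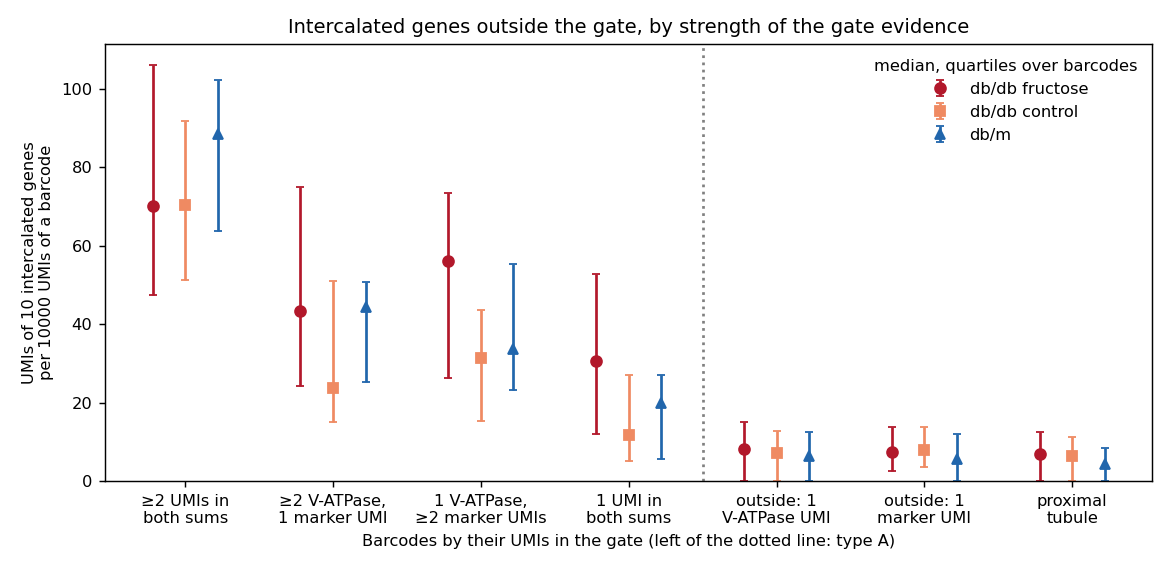
Median UMIs per 10000 over 10 intercalated genes that the rule did not use (vertical axis) in barcodes grouped by their distance from the rule (horizontal axis), with the 3 libraries side by side and lines from the lower to the upper quartile. Strict members sit at 70.1 to 88.5, members with 1 UMI in each sum at 11.8 to 30.6, and barcodes just outside the rule at 5.69 to 8.12, close to the proximal tubule barcodes.

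Transcripts of other cells were present in the type A sums and differed between the libraries. The 8 proximal tubule markers summed to 4974, 2682 and 3171 counts per 1000000 UMIs of the type A total (CPM) in the db/db fructose, db/db control and db/m libraries, and to 4037, 1338 and 1999 CPM in strict members. Of these markers, Kap alone was at 179, 41.6 and 1270 CPM over all members. The other 7 summed to 4795, 2640 and 1902 CPM, and to 3874, 1322 and 1077 CPM in strict members. Without Kap the db/m library was thus the lowest of the 3. The 5 thick ascending limb markers summed to 2495, 1790.1 and 494 CPM, the 3 distal convoluted tubule markers to 1415, 1071 and 201 CPM and the 7 principal and connecting tubule markers to 797, 1061 and 1582 CPM. The db/db fructose library was highest for the first 3 lists and the db/m library for the last. Kit is also a mast cell gene, but all 3 mast cell markers were at 0 in each library. Haemoglobin transcripts gave 968, 379 and 2 counts, and 197, 4 and 1 in strict members. They were at 1549, 385 and 3.59 CPM in type A and were found in 4.65%, 4.98% and 1.77% of members. Other kept barcodes had 1525, 1760 and 3897 CPM of them, and Slc26a4-positive barcodes 13.0, 8.55 and 16.6 CPM. The part of erythroid transcripts in the Slc4a1 level was not tested.

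Type A barcodes made up 1.11% (exact 95% interval 0.970 to 1.27) of kept barcodes in the db/db fructose library, 1.32% (1.17 to 1.49) in the db/db control library and 1.00% (0.828 to 1.21) in the db/m library. The share was highest in the db/db control library, and the interval of the db/db fructose library overlapped both others. This order did not hold for strict members, who made up 0.487%, 0.613% and 0.702% in the same order of libraries, so that the db/m library came highest. Thinned to 1000 UMIs per barcode, the shares were 0.816%, 0.866% and 0.780%. Among type A and Slc26a4-positive barcodes together, type A made up 61.6%, 56.1% and 66.5%. With 1 library per group and tissue dissociation between the kidney and the count, no difference in abundance between the mice can be read from these shares.

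Subunits of the proton pump were measured well in every library. Atp6v1g3, the G subunit of the pump's V1 sector that is restricted to intercalated cells in the kidney, was at 1917 CPM (1810.2 to 2029) in db/db fructose, 3683 CPM (3564 to 3805) in db/db control and 4254 CPM (4085 to 4429) in db/m. It was lowest in the db/db fructose library, and the 3 intervals did not overlap; it belongs to the rule, so this is a description. Atp6v1b1, the B subunit mutated in human distal renal tubular acidosis with deafness, was at 1016 CPM (939 to 1098) in db/db fructose, 966 CPM (905 to 1029) in db/db control and 1259 CPM (1167 to 1356) in db/m. The 2 db/db libraries overlapped in their intervals and lay below the db/m library. Atp6v1f, the F subunit, was at 661 CPM in db/db fructose, 1045 CPM in db/db control and 1343 CPM in db/m, lowest again in the db/db fructose library. Atp6v0c, the ring subunit through which protons pass, was at 1800.4 CPM in db/db fructose, 2438 CPM in db/db control and 2771 CPM in db/m. Atp6v0d2, the d subunit of the V0 sector in the rule, was at 429 CPM in db/db fructose, 403 CPM in db/db control and 542 CPM in db/m.

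Of the bicarbonate and chloride exchangers, Slc4a1 (chr11:102348824-102366203, minus strand) was at 522 CPM (467 to 582) in db/db fructose, 589.9 CPM (543 to 639.9) in db/db control and 932 CPM (854 to 1016) in db/m. It was lower in both db/db libraries than in the db/m library. Slc26a7, a basolateral chloride and bicarbonate exchanger of type A cells (chr4:14502430-14621805, minus strand, mm10 with GENCODE M21), was at 80.0 CPM (59.4 to 105) in db/db fructose, 16.2 CPM (9.29 to 26.4) in db/db control and 84.4 CPM (62.0 to 112) in db/m. These levels rest on 50, 16 and 47 counts. The db/db control library stood apart for this gene, with an interval below those of both other libraries, which overlapped each other. Other kept barcodes had 1.87, 0.802 and 1.17 CPM of it in the same order, far below its level in the gated cells. Car2 was at 1389 CPM in db/db fructose, 1385 CPM in db/db control and 1914 CPM in db/m, highest in the db/m library. Slc4a9, the basolateral exchanger AE4 that is known from type B cells, was at 639 CPM in db/db fructose, 453 CPM in db/db control and 666 CPM in db/m.

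Among the transporters of ammonia and potassium, Rhbg, the basolateral ammonia channel, was at 491 CPM in db/db fructose, 575 CPM in db/db control and 634 CPM in db/m. Rhcg, found in both apical and basolateral membranes, was at 569.7 CPM in db/db fructose, 467 CPM in db/db control and 508 CPM in db/m. Neither spanned more than 1.5-fold between libraries. Atp4a, the gastric type of proton and potassium pump, was at 216 CPM (181 to 256) in db/db fructose, 138 CPM (116 to 163) in db/db control and 91.6 CPM (68.2 to 120.4) in db/m. It was highest in the db/db fructose library and lowest in the db/m library. Fxyd2, the gamma subunit of the sodium pump, was at 1645 CPM in db/db fructose, 3854 CPM in db/db control and 2002 CPM in db/m, highest in the db/db control library. It is abundant in other tubule segments too, with 1545, 1970.5 and 1727 CPM of Fxyd2 in other kept barcodes.

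The regulators of the type were present in all libraries. Foxi1 was at 227 CPM in db/db fructose, 269 CPM in db/db control and 299.9 CPM in db/m. Tfcp2l1, a transcription factor of collecting duct cells, was at 1203 CPM in db/db fructose, 913 CPM in db/db control and 1162 CPM in db/m, and both stayed within 1.5-fold. Dmrt2 was at 289.7 CPM in db/db fructose, 205 CPM in db/db control and 366 CPM in db/m. Esrrg, a nuclear receptor of mitochondrial and ion transport genes, was at 99.2 CPM in db/db fructose, 57.9 CPM in db/db control and 98.8 CPM in db/m. Both were lowest in the db/db control library. Avpr1a, the V1a vasopressin receptor, was at 54.4 CPM in db/db fructose, 87.3 CPM in db/db control and 156 CPM in db/m, lowest in the db/db fructose library. Nr3c2, the mineralocorticoid receptor, was at 89.6 CPM in db/db fructose, 38.6 CPM in db/db control and 53.9 CPM in db/m. Defb1, a secreted defensin, was at 1209.8 CPM in db/db fructose, 2291 CPM in db/db control and 3741 CPM in db/m. Nr3c2 was highest and Defb1 lowest in the db/db fructose library.

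**Figure D2:**
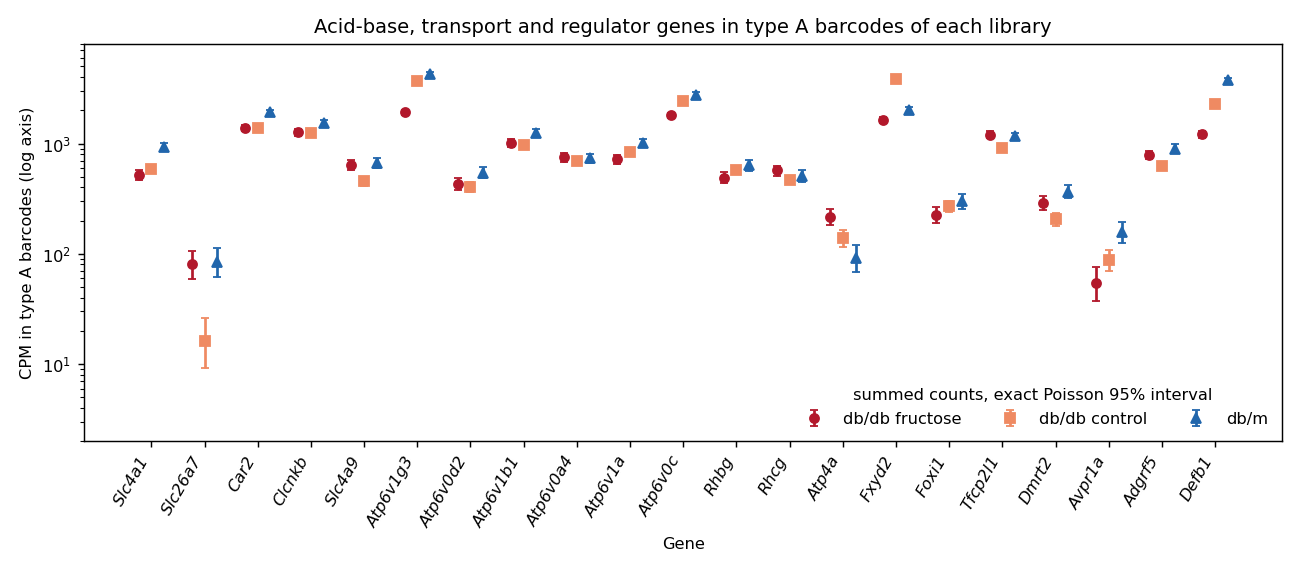
Levels in type A barcodes of acid-base genes grouped by role, in CPM of summed UMI counts on a log axis, with 1 point per library and lines for the exact Poisson 95% interval. The points for Slc26a7 are 80.0, 16.2 and 84.4 CPM in the db/db fructose, db/db control and db/m libraries, and those for Atp6v1g3 are 1917, 3683 and 4254 CPM.

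The comparison of the db/db fructose with the db/db control library asks what the diet went with in type A cells of db/db mice. In the db/db fructose library, most of the measured immediate-early, clock and steroid-response genes lay higher, and transcripts of the mitochondrial genome lay lower. Nuclear genes of the respiratory chain lay lower too, by a count that depended on which members were taken. Of 4026 genes with at least 50 CPM in either library, 35.6% were at least 1.5-fold higher and 7.8% at least 1.5-fold lower in the db/db fructose library, and the median log2 ratio was 0.37. Scaled by size factors (median of ratios), that median was -0.07, with 596 genes higher and 1009 lower in place of 1435 and 314. Every ratio here is to be read against the median of 0.37. No ratio has a replicate check.

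Of the immediate-early and dissociation list, 17 of 22 measured genes were 1.5-fold or more higher and 1 lower, with a median log2 ratio of 1.15, and in strict members 16 of 21 were higher. Over all measured genes 36.1% were higher and 10.4% lower in strict members. Fosb, a component of the AP-1 transcription factor, was at 403 CPM in db/db fructose and 81.2 CPM in db/db control, a log2 ratio of 2.31 (95% interval 1.94 to 2.69). Klf6, a zinc finger factor induced by injury, was at 579 CPM in db/db fructose and 184 CPM in db/db control (1.66). Klf4, another of the family, was at 110.4 CPM in db/db fructose and 35.5 CPM in db/db control (1.64). All 3 lay higher in other kept barcodes as well, by 0.75, 1.01 and 0.56. Jun was at 1559 CPM in db/db fructose and 657 CPM in db/db control, and Egr1 at 466 CPM in db/db fructose and 177 CPM in db/db control. Enzymatic dissociation is known to induce these genes, and whether it differed between the libraries was not tested.

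Of 8 measured clock genes, 6 were 1.5-fold or more higher and 0 lower, with a median of 1.22. Over all measured genes 35.6% were higher and 7.8% lower. Being measured takes 50 CPM in either library, and Nr1d2 and Per3 reached that only in the db/db fructose library. Such genes could enter the count only as higher, so the count leans that way. Nr1d2, a repressor of the clock, was at 92.8 CPM in db/db fructose and 21.3 CPM in db/db control (2.12), and Per3 at 75.2 CPM in db/db fructose and 18.3 CPM in db/db control (2.04). Tef, a clock output factor, was at 248 CPM in db/db fructose and 69.0 CPM in db/db control (1.85). These genes were also higher in other kept barcodes, by 1.78, 2.15 and 1.41. The hour at which the kidneys were taken is not given in the sources used here. In the glucocorticoid and mineralocorticoid list, 8 of 13 were higher and 1 lower. Fkbp5, a chaperone of steroid receptors, was at 194 CPM in db/db fructose and 74.1 CPM in db/db control (1.39). Nr3c2 had a log2 ratio of 1.22 (95% interval 0.60 to 1.85) against 0.11 in other kept barcodes. Like Nr1d2 and Per3, it reached 50 CPM only in the db/db fructose library and could be counted only as higher. Hsd11b2, which inactivates glucocorticoids in principal cells, was the member that lay lower, at 65.6 CPM in db/db fructose and 129.97 CPM in db/db control.

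All 13 measured transcripts of the mitochondrial genome were 1.5-fold or more lower in the db/db fructose library, with a median of -0.90, and 12 of 13 in strict members. Over all measured genes 7.8% were lower, and 10.4% in strict members. The mitochondrial share was lower over all kept barcodes too, as given above. Of 25 nuclear genes of oxidative phosphorylation, 15 were 1.5-fold or more lower and 0 higher, with a median of -0.64. Cox8a, a subunit of cytochrome oxidase, was at 1455 CPM in db/db fructose and 2546 CPM in db/db control (-0.81). Ndufa1, of complex I, was at 187 CPM in db/db fructose and 336 CPM in db/db control (-0.84). In other kept barcodes the same genes had ratios of 0.11 and -0.27. The count depended on the members taken. Strict members had 7 of 25 lower with a median of -0.55, and with Slc4a1 as the only marker of the rule there were 0, with a median of -0.37. Ribosomal protein genes were lower in 19 of 79 cases, with a median of -0.47.

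Genes of fructose breakdown were higher in 4 of 6 measured cases and lower in 0, with a median of 0.77. Over all measured genes 35.6% were higher and 7.8% lower. Khk, the ketohexokinase that phosphorylates fructose, was at 171 CPM in db/db fructose and 89.4 CPM in db/db control (0.94). Khk is a proximal tubule gene, and proximal tubule markers were also higher in the type A barcodes of the db/db fructose library, at 4974 CPM against 2682 CPM in the db/db control library. In strict members the ratio of Khk was 1.69 and the markers were at 4037 CPM against 1338 CPM. The part of proximal tubule transcripts in these ratios was not tested.

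Acid-base genes were counted against the 35.6% higher and 7.8% lower among all measured genes. Slc26a7 had a log2 ratio of 2.30 (95% interval 1.46 to 3.21). Of the bicarbonate, chloride and carbonic anhydrase list 3 of 14 measured genes were higher and 0 lower. Of the V1 subunits of the pump 2 of 11 were lower and 0 higher. These were Atp6v1f, with a log2 ratio of -0.66 (95% interval -0.83 to -0.49), and Atp6v1g3, with -0.94 (95% interval -1.04 to -0.85), whose counts chose the members. Leaving Atp6v1g3 out, 1 of 10 was lower, near the share of all genes. The list's median was -0.22, and that of the V0 subunits 0.10, or -0.28 with size factors, so the sign of the second depends on the scaling. In the potassium, sodium pump and ammonia list 3 of 10 were higher and 1 lower. Kcnj15, an inward rectifier channel, was at 274 CPM in db/db fructose and 133 CPM in db/db control, and Fxyd2 had a log2 ratio of -1.23 (95% interval -1.33 to -1.13). Of the receptors 5 of 10 were higher and 1 lower. Of the transcription factors 4 of 11 were higher and 0 lower. The shares higher in the bicarbonate, potassium and transcription factor lists were near or below that of all genes.

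The genes with the largest ratios among well-covered genes that were at least as high in type A as in other kept barcodes included several outside these lists. Trpm3, a calcium-permeable channel, was at 107 CPM in db/db fructose and 27.4 CPM in db/db control (1.97). Slc5a3, the sodium-coupled inositol transporter, was at 531 CPM in db/db fructose and 176 CPM in db/db control (1.60), and Mast4, a kinase, at 166 CPM in db/db fructose and 54.8 CPM in db/db control (1.60). Ppp1r10 and Pclo, a presynaptic scaffold gene, had ratios of 1.62 and 1.58. At the other end Cbr2, a carbonyl reductase, was at 20.8 CPM in db/db fructose and 140.1 CPM in db/db control, a log2 ratio of -2.75 (95% interval -3.70 to -1.93). Other kept barcodes of the same libraries had 0.923 and 1.20 CPM of Cbr2 and a ratio of -0.38. S100a1, a calcium-binding protein gene, was at 459 CPM in db/db fructose and 1130.1 CPM in db/db control (-1.30), and Mgst3, a glutathione transferase, at 97.6 CPM in db/db fructose and 221 CPM in db/db control (-1.18). Ociad2, Ndufb1-ps, Cox7a2l and Rabac1 had ratios of -1.53, -1.44, -1.19 and -1.18. In strict members all 16 genes so named kept the sign of their ratio. Strict members are part of the sums that chose these genes, so this is no independent check.

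In the other lists the counts past 1.5-fold in the db/db fructose library were 1 higher and 0 lower of 17 for glycolysis and glucose uptake, 2 higher and 5 lower of 14 for fatty acid oxidation, 1 higher and 4 lower of 16 for oxidative stress and metallothioneins and 2 higher and 0 lower of 12 for the unfolded protein response. They were 3 higher and 1 lower of 5 for innate defence, 2 higher and 1 lower of 7 for interferon and MHC genes and 2 higher and 1 lower of 11 for tubular injury. These counts are to be read against the 35.6% higher and 7.8% lower of all measured genes. C3, a complement component, was at 64.0 CPM in db/db fructose and 10.2 CPM in db/db control and at 0 CPM in the db/m library, where 0 counts allow up to 5.39 CPM. Nfkb1, of the NF-kappa-B family, was at 72.0 CPM in db/db fructose and 18.3 CPM in db/db control (1.98), with a ratio of 0.41 in other kept barcodes. C3 and Nfkb1 reached 50 CPM only in the db/db fructose library, so they could be counted only as higher. Mt1, a metallothionein, was at 373 CPM in db/db fructose and 660.0 CPM in db/db control (-0.82), and Ppargc1a, a coactivator of mitochondrial genes, at 266 CPM in db/db fructose and 158 CPM in db/db control (0.75). Vim, an intermediate filament gene of the injury list, had a ratio of 2.09, which was -0.46 in strict members, so its sign depends on the members taken.

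**Figure D3:**
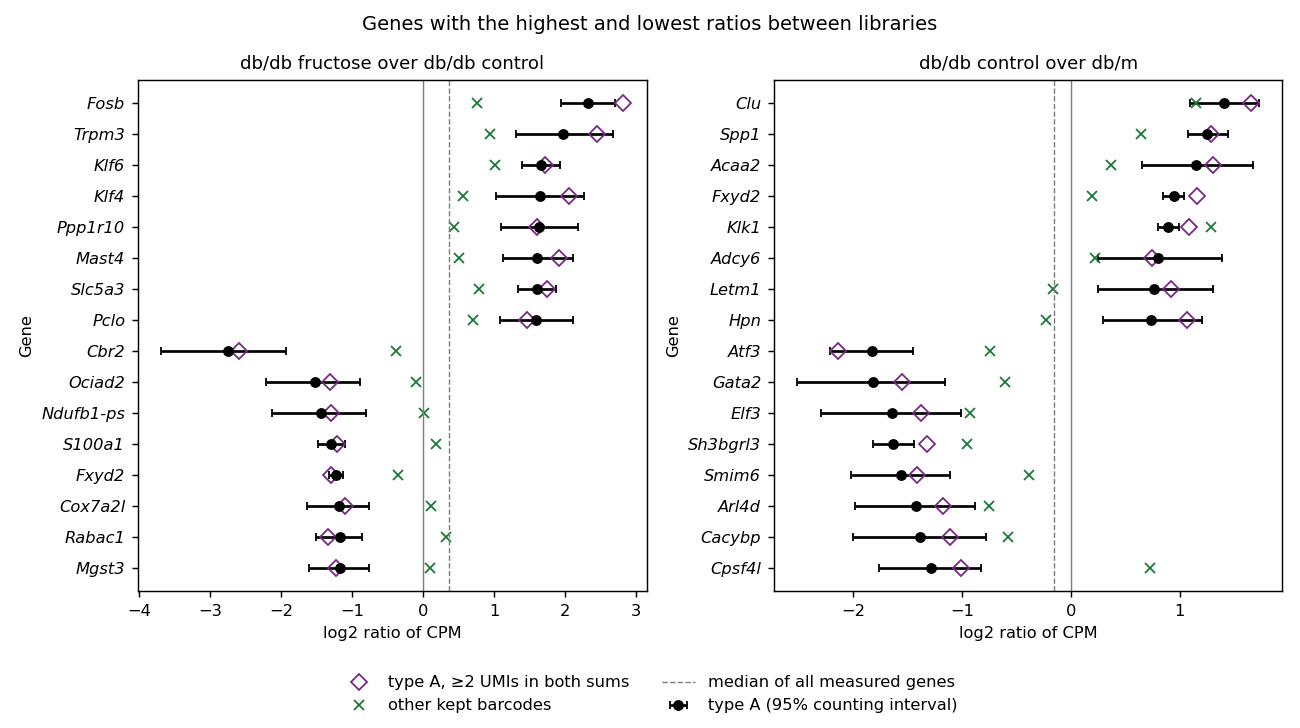
Log2 ratios of CPM in type A barcodes (horizontal axis) for the 8 highest and 8 lowest genes of each comparison between libraries, with lines for the counting 95% interval, diamonds for strict members, crosses for other kept barcodes and a dashed line at the median of all measured genes. Cbr2 lies at -2.75 in type A and at -0.38 in other kept barcodes for db/db fructose over db/db control, and Fosb at 2.31 and 0.75.

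The comparison of the db/db control with the db/m library concerns genotype on the same diet, and it shares the db/db control library with the comparison above. In the db/db control library immediate-early genes and the exchanger Slc26a7 lay lower, while Fxyd2, the potassium channel genes Kcnj1 and Kcnj16, Clu and Spp1 lay higher. Of 3446 measured genes, 6.24% were at least 1.5-fold higher and 12.3% at least 1.5-fold lower, and the median log2 ratio was -0.16. With size factors the median was 0.03 and the counts were 360 higher and 191 lower, in place of 215 and 425.

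Slc26a7 had a log2 ratio of -2.38 (95% interval -3.30 to -1.53), and -2.11 in strict members, while in other kept barcodes it was -0.55. Slc4a1 had -0.66 (95% interval -0.83 to -0.49), and -0.46 in strict members. Of the bicarbonate, chloride and carbonic anhydrase list these 2 of 13 measured genes were lower and 0 higher, and Slc4a1 is a gene of the rule. Of 11 V1 subunits and 9 V0 and accessory subunits, 0 were 1.5-fold or more higher or lower. Dmrt2 and Esrrg were the 2 of 11 transcription factors that were lower, with ratios of -0.84 (95% interval -1.12 to -0.55) and -0.77 (95% interval -1.33 to -0.21). Of the 9 receptors measured, Avpr1a (-0.84) and Kit (-0.67), itself a gene of the rule, were lower and Insr, the insulin receptor, was higher (0.64). The db/db control library also held the largest number of members near the edge of the rule, and in strict members the ratios of Dmrt2, Avpr1a and Insr were -0.51, -0.49 and 0.25, none of them as large as 1.5-fold. The counts of 0 to 2 lower in these lists are to be read against the 12.3% of all measured genes, and they make no list stand apart.

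Of the potassium, sodium pump and ammonia list 5 of 10 genes were 1.5-fold or more higher and 0 lower, with a median of 0.51, and 4 of 10 were higher in strict members, against 6.15% higher and 10.6% lower of all genes measured in those. Kcnj16 and Kcnj1, inward rectifier potassium channels, were at 109.7 CPM in db/db control and 35.9 CPM in db/m and at 85.3 CPM in db/db control and 35.9 CPM in db/m. Their log2 ratios were 1.61 (95% interval 0.91 to 2.38) and 1.25 (95% interval 0.53 to 2.03). Both channels reached the 50 CPM needed to be measured only in the db/db control library. They could be counted only as higher, so the count of the list leans that way. Fxyd2 had a ratio of 0.94 (95% interval 0.85 to 1.04) and Atp4a of 0.59 (95% interval 0.12 to 1.09). Kcnj1 is itself a thick ascending limb marker. The 5 markers of that segment were at 1790.1 CPM in type A barcodes of the db/db control library against 494 CPM in the db/m library, and the 3 distal convoluted tubule markers at 1071 CPM against 201 CPM. The part of transcripts from those segments in these ratios was not tested.

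Of the immediate-early and dissociation list 17 of 21 genes were 1.5-fold or more lower and 0 higher, with a median of -0.73, and 15 of 21 were lower in strict members. Over all measured genes 12.3% were lower, and 10.6% in strict members. Atf3, a stress-induced repressor, was at 89.4 CPM in db/db control and 318 CPM in db/m (-1.83), and Fos was at 459 CPM in db/db control and 945 CPM in db/m (-1.04). In other kept barcodes these ratios were -0.74 and -0.60. Clu, the secreted chaperone clusterin, was at 486 CPM in db/db control and 183 CPM in db/m (1.41), and Spp1, osteopontin, at 1285 CPM in db/db control and 539 CPM in db/m (1.25). Other kept barcodes were higher for both as well, by 1.15 and 0.65. Klk1, a kallikrein of the connecting tubule, had a ratio of 0.89, Acaa2, a thiolase of fatty acid oxidation, of 1.15, and Adcy6, Letm1 and Hpn of 0.80, 0.76 and 0.74. In other kept barcodes Klk1 was at 1.29, above its ratio in type A, Acaa2 at 0.37 and Adcy6 at 0.23, while Letm1 and Hpn went the other way, at -0.17 and -0.23. Gata2, a transcription factor, had a ratio of -1.82 (95% interval -2.52 to -1.16), Elf3 of -1.64 (95% interval -2.29 to -1.01) and Sh3bgrl3 of -1.63 (95% interval -1.82 to -1.44). Smim6, Arl4d, Cacybp and Cpsf4l had ratios of -1.56, -1.43, -1.38 and -1.29, and that of Cpsf4l in other kept barcodes was 0.72.

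In the other lists the counts past 1.5-fold in the db/db control library were 1 higher and 0 lower of 17 for glycolysis and glucose uptake, 2 higher and 0 lower of 13 for fatty acid oxidation, 2 higher and 0 lower of 16 for oxidative stress and metallothioneins and 1 higher and 4 lower of 12 for the unfolded protein response, with 0 higher and 2 lower of 4 for innate defence, 1 higher and 0 lower of 5 for interferon and MHC genes and 2 higher and 2 lower of 9 for tubular injury. They were 1 higher and 2 lower of 8 for fructose breakdown, 1 and 0 of 4 for the clock, 1 and 1 of 10 for steroid response and 0 and 4 of 79 for ribosomal proteins. Of the respiratory chain, 0 of 25 nuclear genes were higher and 0 lower, and 1 of 13 mitochondrial genes were higher and 0 lower. These counts are to be read against the 6.24% higher and 12.3% lower of all measured genes. Pdk4, a kinase that turns off pyruvate dehydrogenase, was at 75.1 CPM in db/db control and 21.6 CPM in db/m (1.80), with a ratio of 1.31 in other kept barcodes. Mt1 was at 660.0 CPM in db/db control and 323 CPM in db/m (1.03), and Krt8, a keratin, at 66.0 CPM in db/db control and 144 CPM in db/m (-1.12).

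**Figure D4:**
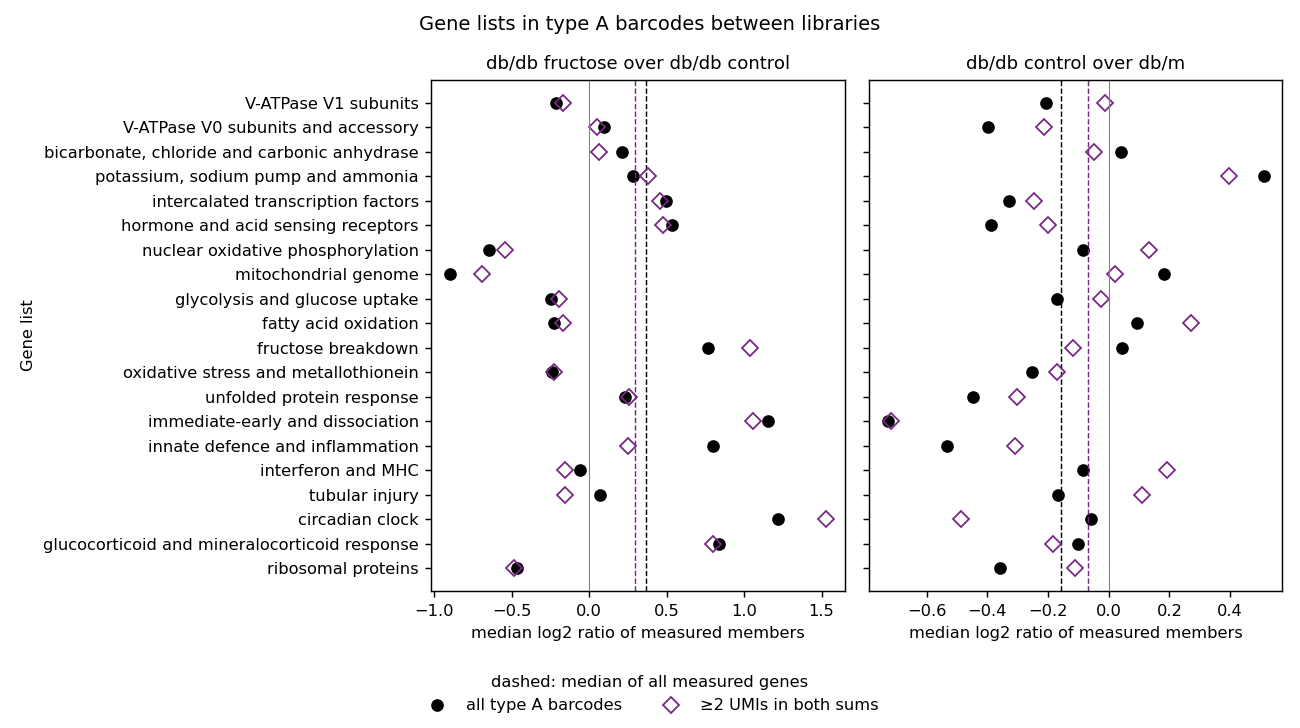
Median log2 ratio in type A barcodes (horizontal axis) of each gene list for db/db fructose over db/db control and for db/db control over db/m, with circles for all type A barcodes, diamonds for strict members and dashed lines at the medians of all measured genes. The immediate-early list lies at 1.15 and -0.73, and the mitochondrial genome at -0.90 and 0.18.

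Type A barcodes were compared with the 411 Slc26a4-positive barcodes, V-ATPase-positive barcodes with at least 1 UMI of Slc26a4, of which 134, 220 and 57 came from the db/db fructose, db/db control and db/m libraries. Each library gave 1 sum per class, so the class difference was measured 3 times, in libraries that differ in genotype and diet. Genes that travel with Slc26a4 differ by the way the classes were split. So do genes that travel with Slc4a1, Aqp6 or Kit, of which only type A barcodes needed a UMI. Adjusted p-values for such genes are no independent support for the classes. Dmrt2, Adgrf5 and Muc20 were higher in type A barcodes of every library, and Insrr and Hmx2 were almost absent from them. By edgeR's quasi-likelihood test with library as a block, 1636 of 8549 tested genes (19.1%) were higher and 1481 (17.3%) lower in type A at a Benjamini-Hochberg adjusted p under 0.05. The counts moved with a few barcodes of more than 10000 UMIs, which held 59.5%, 51.6% and 22.6% of the Slc26a4-positive UMIs and 16.5%, 6.23% and 13.5% of the type A UMIs. Without them 314 of 7077 genes were higher and 226 lower, and 311 of the 1636 and 169 of the 1481 passed both ways.

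Distal convoluted tubule and proximal tubule markers moved with those barcodes, and their part in the calls was not tested. The 3 distal convoluted tubule markers were at 1415, 1071 and 201 CPM in type A and 5455, 3984 and 1872 CPM in Slc26a4-positive barcodes of db/db fructose, db/db control and db/m. Without the large barcodes they were at 945, 882 and 228 CPM in type A and 1747, 1267 and 1070 CPM in Slc26a4-positive barcodes. The 8 proximal tubule markers were at 4974, 2682 and 3171 CPM in type A and 9018, 7631 and 7213 CPM in Slc26a4-positive barcodes, and without the large barcodes at 4556, 2444 and 3160.1 CPM and at 4223, 2643 and 5946 CPM. After that step the classes were close for the proximal tubule markers in both db/db libraries, and in the db/m library the Slc26a4-positive barcodes stayed higher. For the distal convoluted tubule markers the Slc26a4-positive barcodes stayed higher in all 3 libraries. Genes are therefore given below with their value without the large barcodes, where they were tested in that fit.

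Dmrt2 was at 289.7, 205 and 366 CPM in type A barcodes of db/db fructose, db/db control and db/m, against 20.8, 18.8 and 24.96 CPM in Slc26a4-positive barcodes of those libraries. It had a log2 ratio of 3.82 (adjusted p = 1.6e-58), and 3.37 without the large barcodes (adjusted p = 5.8e-29). Adgrf5 was at 787, 632 and 902 CPM in type A barcodes of db/db fructose, db/db control and db/m, against 72.9, 77.8 and 70.7 CPM in Slc26a4-positive barcodes of those libraries. It had a log2 ratio of 3.47 (adjusted p = 2.9e-58), and 2.86 without the large barcodes (adjusted p = 7.1e-34). Muc20, a membrane mucin gene, was at 141, 133 and 212 CPM in type A barcodes of db/db fructose, db/db control and db/m, against 6.51, 9.40 and 12.5 CPM in Slc26a4-positive barcodes of those libraries. It had a log2 ratio of 4.21 (adjusted p = 4.7e-47), and 3.74 without the large barcodes (adjusted p = 2.4e-22). The ranges of the classes did not overlap for any of the 3. How far these genes travel with Slc4a1, Aqp6 or Kit, and so differ by the rule itself, was not tested. Nupr1, a stress-response cofactor, and Kcns3, a modulatory potassium channel subunit, had log2 ratios of 3.44 and 3.68, and 2.54 and 2.64 without the large barcodes. Eya2, Calcr (the calcitonin receptor) and Rprm were named as highest but rested on 1, 1 and 2 counts in Slc26a4-positive barcodes, where a fitted ratio depends on the prior count. From the sums over libraries their log2 ratios were 5.40 (counting 95% interval 2.84 to 10.74), 5.26 (2.69 to 10.60) and 4.82 (2.89 to 7.90). Without the large barcodes Rprm had a fitted log2 ratio of 4.54, while Eya2 and Calcr were not among the genes tested.

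Rhbg was higher in type A, with a log2 ratio of 2.44 (adjusted p = 9.5e-34), and 1.59 without the large barcodes (adjusted p = 2.7e-13). Car2 had a log2 ratio of 1.20 (adjusted p = 1.4e-07), and 0.50 without the large barcodes (adjusted p = 0.031). Rhcg had a log2 ratio of 1.26 (adjusted p = 1.7e-10), and 0.57 without the large barcodes (adjusted p = 0.03). Defb1 was at 1209.8, 2291 and 3741 CPM in type A barcodes of db/db fructose, db/db control and db/m, against 253, 440.2 and 537 CPM in Slc26a4-positive barcodes of those libraries. It had a log2 ratio of 2.62 (adjusted p = 2.9e-27), and 2.22 without the large barcodes (adjusted p = 1.6e-30). P2ry14, a receptor for UDP-sugars that intercalated cells use to sense injury in mice, had a log2 ratio of 2.76 (adjusted p = 4.4e-11), and 1.91 without the large barcodes (adjusted p = 2.1e-04). Cryab, a small heat shock protein, had a log2 ratio of 3.25 (adjusted p = 4.0e-53), and 2.34 without the large barcodes (adjusted p = 2.4e-22). Oxgr1, the receptor for oxoglutarate, had a log2 ratio of 1.99 (adjusted p = 1.3e-21), and 1.14 without the large barcodes (adjusted p = 1.2e-05). Atp6v1f and Atp6v1a of the pump had ratios of 1.42 and 1.20, and 0.73 and 0.52 without the large barcodes. Foxi1 and Atp6v1b1 passed with those barcodes and not without them, with ratios of 1.30 and 1.17, and 0.35 (adjusted p = 0.32) and 0.47 (adjusted p = 0.062) without them.

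Lower in type A was Insrr, a receptor that senses alkaline pH, at 11.2, 5.08 and 5.39 CPM in type A barcodes of db/db fructose, db/db control and db/m, against 384, 355 and 582 CPM in Slc26a4-positive barcodes of those libraries. It had a log2 ratio of -5.73 (adjusted p = 4.5e-94), and -6.77 without the large barcodes (adjusted p = 4.6e-78). It was detected in 2.79%, 1.42% and 1.77% of type A barcodes, against 77.6%, 66.8% and 77.2% of Slc26a4-positive barcodes, whose median depths were 1964, 2138 and 2814 UMIs. Hmx2, a homeobox factor, had 1 count in all type A barcodes against 193 in Slc26a4-positive barcodes, a log2 ratio of sums of -7.58 (-12.90 to -5.09) with its counting interval. Cacna1e, a calcium channel subunit, and Syt7, a calcium sensor of exocytosis, had ratios of sums of -6.12 (-11.45 to -3.60) and -5.42 (-10.75 to -2.86), and Ank, a membrane protein of pyrophosphate and citrate export, of -4.08 (-6.40 to -2.45). Without the large barcodes the fitted log2 ratios of Hmx2, Cacna1e, Syt7 and Ank were -9.36, -6.26, -7.17 and -4.92. With so few counts in type A, these fitted values depend on the prior count. Lsamp, Tmem163 and Nbea, genes known from neurons, had fitted log2 ratios of -5.01, -4.04 and -3.18, and -6.06, -4.95 and -3.97 without the large barcodes. Slc4a9 was lower too, with a log2 ratio of -1.08 (adjusted p = 8.5e-07), and -1.86 without the large barcodes (adjusted p = 5.5e-24). Of the carbonic anhydrases, Car15 had a log2 ratio of -0.94 (adjusted p = 8.3e-06), and -1.90 without the large barcodes (adjusted p = 1.4e-21), and Car12 a log2 ratio of -0.80 (adjusted p = 6.6e-05), and -1.19 without the large barcodes (adjusted p = 6.6e-09). Jag1, a Notch ligand, had a log2 ratio of -0.94 (adjusted p = 0.0011), and -1.62 without the large barcodes (adjusted p = 4.6e-07).

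Among the gene lists, nuclear genes of oxidative phosphorylation stood highest: type A had 25 of 25 genes higher and 0 lower, and without the large barcodes 14 of 25 higher and 0 lower. Their median log2 ratio was 1.23, and 0.69 without the large barcodes, against medians over all tested genes of -0.05 and 0.01. Of all tested genes 19.1% were higher and 17.3% lower, and without the large barcodes 314 of 7077 were higher and 226 lower. Every count below is to be read against these. The V1 subunits had 7 of 10 genes higher and 1 lower, and without the large barcodes 3 of 10 higher and 0 lower. The V0 and accessory subunits had 7 of 11 genes higher and 1 lower, and without the large barcodes 0 of 11 higher and 2 lower, where the median log2 ratio was still 0.12. Glycolysis genes had 13 of 18 genes higher and 1 lower, and without the large barcodes 3 of 18 higher and 1 lower, and fatty acid oxidation genes 9 of 19 genes higher and 1 lower, and without the large barcodes 0 of 18 higher and 0 lower. Clock genes had 0 of 15 genes higher and 5 lower, and without the large barcodes 0 of 12 higher and 1 lower. The bicarbonate, chloride and carbonic anhydrase list had 4 of 16 genes higher and 7 lower, and without the large barcodes 1 of 13 higher and 3 lower. Of the transcription factors type A had 4 of 14 genes higher and 2 lower, and without the large barcodes 2 of 14 higher and 1 lower, and of the receptors 5 of 15 genes higher and 4 lower, and without the large barcodes 3 of 15 higher and 2 lower. Transcripts of the mitochondrial genome had 8 of 13 genes higher and 0 lower, and without the large barcodes 0 of 13 higher and 0 lower. Several lists turned towards lower when the large barcodes were left out. Oxidative stress and metallothionein genes had 8 of 17 genes higher and 0 lower, and without the large barcodes 3 of 17 higher and 4 lower. The unfolded protein response had 6 of 17 genes higher and 2 lower, and without the large barcodes 0 of 17 higher and 4 lower, and tubular injury 4 of 12 genes higher and 0 lower, and without the large barcodes 1 of 11 higher and 3 lower. Immediate-early genes had 6 of 23 genes higher and 7 lower, and without the large barcodes 0 of 23 higher and 9 lower. Innate defence had 4 of 6 genes higher and 1 lower, and without the large barcodes 2 of 6 higher and 0 lower, and interferon and MHC genes 6 of 11 genes higher and 2 lower, and without the large barcodes 0 of 8 higher and 1 lower. Fructose breakdown had 2 of 9 genes higher and 4 lower, and without the large barcodes 1 of 8 higher and 1 lower, and the steroid response 1 of 15 genes higher and 6 lower, and without the large barcodes 0 of 15 higher and 3 lower. The potassium, sodium pump and ammonia list had 3 of 12 genes higher and 3 lower, and without the large barcodes 2 of 12 higher and 1 lower.

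**Figure D5:**
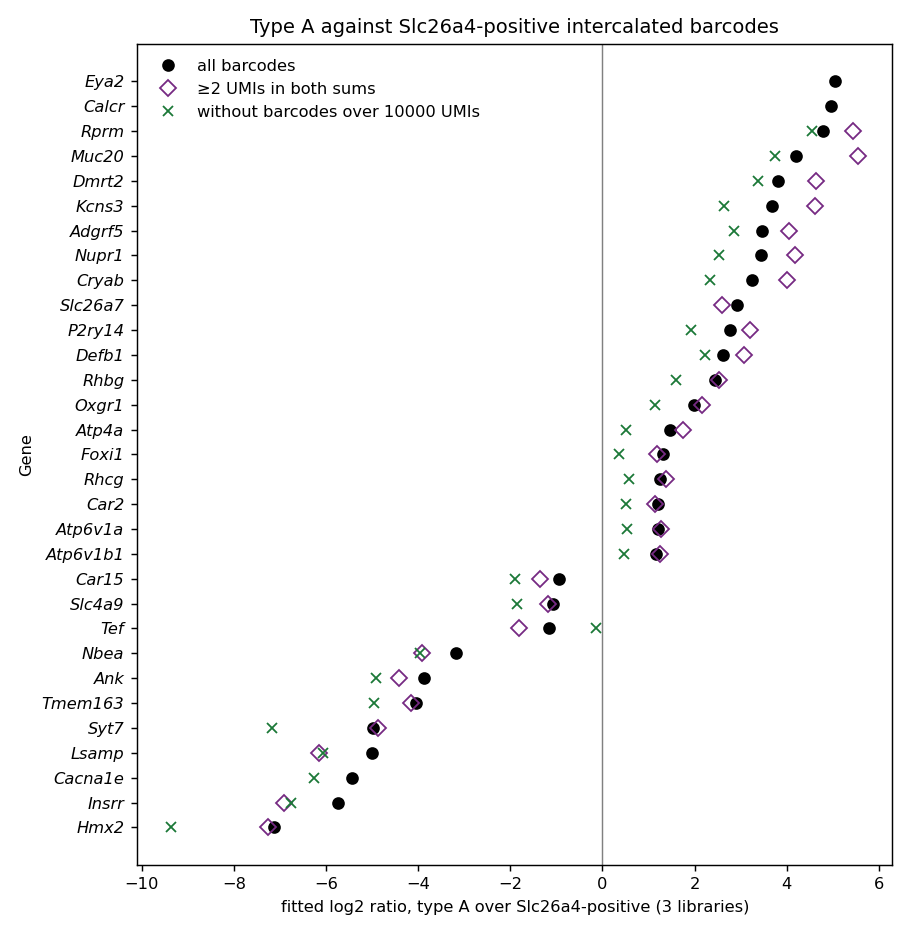
Log2 ratio of type A over Slc26a4-positive barcodes by edgeR (horizontal axis) for named and acid-base genes, with circles for all barcodes, diamonds for strict members and crosses without barcodes of more than 10000 UMIs. Muc20, Dmrt2 and Adgrf5 lie at 4.21, 3.82 and 3.47 and Insrr at -5.73, and Foxi1 moves to 0.35 without the large barcodes.

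Foxi1 is a forkhead factor that acts on V-ATPase genes in mice, so the letters of a forkhead core, GTAAACA or on the other strand TGTTTAC, were searched in the 250 bases before the starts of genes in the RefSeq promoter table of GRCm38.p6. The 2 windows with a match are shown because they belong to a pump subunit and to a gene named as highest in type A, with the matched letters in capitals, each read 5′ to 3′ on the gene's strand. Atp6v1b1 is taken from chr6:83742767-83743016 on the plus strand and Muc20 from chr16:32797436-32797685 on the minus strand.
Atp6v1b1: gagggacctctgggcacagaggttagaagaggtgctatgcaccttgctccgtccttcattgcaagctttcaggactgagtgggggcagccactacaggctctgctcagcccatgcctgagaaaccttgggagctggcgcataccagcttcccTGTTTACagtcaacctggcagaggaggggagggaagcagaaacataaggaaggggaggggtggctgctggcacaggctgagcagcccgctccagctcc
Muc20: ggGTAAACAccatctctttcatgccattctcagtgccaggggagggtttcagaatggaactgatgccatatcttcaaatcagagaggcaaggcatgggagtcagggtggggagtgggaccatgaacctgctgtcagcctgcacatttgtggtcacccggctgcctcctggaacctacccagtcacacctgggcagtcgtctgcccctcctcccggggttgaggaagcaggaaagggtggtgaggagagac
The match begins 98 bases before the start of Atp6v1b1 and 248 bases before that of Muc20. Of 27 windows for 21 of the 27 V-ATPase genes 1 held the letters, as did 1 of 18 windows for 13 of the 16 genes named for type A over Slc26a4-positive barcodes, against 3.17% of all 32851 windows. A match is a description of these letters and not a binding site.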

How the data were processed

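Per the labels' protocols, minced kidneys were dissociated with enzymes (collagenase II, pronase E) and cleared of erythrocytes, debris and dead cells. The authors deposited UMI counts per gene and barcode. The submitters' processing notes name Cell Ranger 6.0.0 and mm10. The files hold 32285 genes and 60420 barcodes. Counts of type A barcodes were summed per library and expressed as CPM (per 1000000 UMIs of that sum). Levels carry exact Poisson 95% intervals, ratios exact conditional binomial ones and shares exact Clopper-Pearson ones. PCR duplicates are collapsed by UMI, and all of these intervals cover counting error only. Genes reaching 50 CPM in at least 1 of the libraries compared are called measured, and those with a ratio of 1.5-fold or more are counted. A gene under 50 CPM in 1 library thus enters through the library where it is higher. A sum of 0 counts allows up to 3 counts. Libraries were not tested against each other.

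Type A and Slc26a4-positive sums were compared with edgeR 4.0.16 (R 4.3.3; filterByExpr, TMM, glmQLFit and glmQLFTest, library as block, Benjamini-Hochberg over all genes tested), with DESeq2 1.42.0 as an alternative. On simulated counts of that comparison with 8555 genes, 99 of 100 genes changed 4-fold and 62 of 100 changed 2-fold were recovered, with 4 false calls. The simulated sums came from 1 common profile and held no barcodes over 10000 UMIs. They therefore cannot give the error rate of the reported calls, which moved with those barcodes. The genes named are the 8 highest and 8 lowest ratios of each comparison: between libraries among genes with at least 100 CPM and 20 counts in the higher library and a level there at least that of other kept cells, and between classes among genes past the test with the same direction in each library. Mitochondrial, ribosomal, haemoglobin, immunoglobulin, sex-linked, unnamed and gate genes were left out. All members of acid-base lists and up to 4 of each other list could be named, and some genes were added after their values were seen. The members, lists and rules were chosen with earlier results of these data known. Doublets were scored with Scrublet in scanpy 1.11.5, whose automatic thresholds called 15.2%, 7.75% and 0% of barcodes in the db/db fructose, db/db control and db/m libraries. This spread made them unusable, and removal at the expected rate of 0.8% per 1000 barcodes was an alternative. The other alternatives changed the gate, the filters, the scaling, the CPM minimum, the weighting of cells and the test. Leaving out barcodes over 10000 UMIs was added after the data were seen. Some list members are not reported here by name.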

Additional observations from a re-analysis of the deposited data

How the results depend on the processing

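The shares of type A barcodes moved with the gate. At least 2 UMIs in both sums gave 0.487%, 0.613% and 0.702% in the db/db fructose, db/db control and db/m libraries, Slc4a1 in place of the 3 markers gave 0.512%, 0.815% and 0.675%, and thinning gave 0.816%, 0.866% and 0.780%. With at least 500 genes the db/db control share was 1.52%. For db/db fructose over db/db control, 596 genes were higher with size factors, 2842 with a minimum of 20 CPM and 5302 with no minimum, in place of 1435. Lower genes, 314 in the main analysis, numbered 208 with the Slc4a1 gate, 542 at up to 30% mitochondrial UMIs, 1009 with size factors, 549 at 20 CPM, 1227 with no minimum and 662 without mitochondrial genes in the total. For db/db control over db/m, higher genes (215) numbered 396 with the Slc4a1 gate, 360 with size factors, 666 at 20 CPM, 1809 with no minimum and 372 without mitochondrial genes in the total. Lower genes (425) numbered 191, 1109 and 2692 with size factors, 20 CPM and no minimum, and 824 with each cell weighted equally. Lower minimums count more genes because more are measured. For the other differences the cause was not tested.

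Vim, at 2.09 for db/db fructose over db/db control, was at -0.46 in strict members, -1.48 with the Slc4a1 gate and -2.26 without barcodes over 10000 UMIs. For type A over Slc26a4-positive barcodes, 1636 genes higher became 314 without barcodes over 10000 UMIs, 887 with DESeq2 and 752 with no replicate block, and 1481 lower became 226, 425 and 430. Without each library in turn there were 963 to 1601 higher and 553 to 1434 lower. Without barcodes over 10000 UMIs the log2 ratios of Clu, Ifitm3, Krt7 and Rora were -0.0013, -1.05, -0.029 and 0.052, in place of 0.72, 1.01, 0.71 and -0.70. Of the values for named genes of this comparison under the alternatives, 967 kept direction and side of the threshold, 115 fell short of it and 11 passed it. No paired analysis was possible between the groups because each has 1 library.

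Depth limits the rarer genes: 3 counts correspond to 4.80, 3.05 and 5.39 CPM in the db/db fructose, db/db control and db/m libraries.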
